A study of Mus musculus with 21 samples.

Results

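The microarray used here carried 1687 probes, and 73 of them are named by an identifier of a public sequence database rather than by the array maker's own catalogue number. They were taken as every probe whose name is not M2 followed by 8 digits, leaving out the blank and empty spots and NM_152803 and NM_010180, so the choice used no measured value. Of the 73 identifiers, 55 are UniGene clusters, 9 are GenBank accessions, 8 are predicted RefSeq mRNAs and 1 is a curated RefSeq mRNA. A single UniGene name is written M.56219 on the arrays and Mm.56219 in the authors' table. Gene expression had been measured in the skin of female C57Bl/KS-db/+ mice of 9 to 13 weeks, heterozygous for db, the diabetes allele of the leptin receptor. A square of back skin of 1.5 by 1.5 cm was excised with the thin muscle beneath it and covered with a dressing. Tissue was taken 2, 6 and 15 days after wounding from the wound bed, which fills the excised area, and from the wound edge, the 2 mm of skin around it, and intact skin was the control. Each of the 7 groups had 3 arrays. A total of 3 animals was used for each time point, per the labels. These leave unsaid if 1 animal gave both a bed and an edge sample, and for the bed they name operation-day skin as well.

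A skin wound first fills with a clot and inflammatory cells, then with granulation tissue made of new vessels, fibroblasts and matrix, and is closed by keratinocytes that move in from the edge. The bed starts without epidermis or hair follicles, whereas the edge keeps both. Heparan sulfate, which the title of the series names, is a long sulfated polysaccharide carried by proteoglycans of the cell surface and matrix, and it binds growth factors and chemokines. A UniGene number stands for a cluster of transcript sequences that were assigned to 1 locus, a GenBank accession beginning with BC for a cDNA clone, and an XM accession for an mRNA predicted from the genome. The files and tables used here pair no UniGene number, GenBank accession or XM accession with a gene. The 1 identifier that matched the RefSeq gene table was NM_031186, which is Ndst3, an enzyme that modifies heparan sulfate chains by exchanging acetyl for sulfate groups. All other probes are therefore described by identifier, with no gene name or role, and no probe sequence was used. Since probes and gene symbols are not paired, the tissue labels were not checked against marker genes. In whole tissue, fewer cells of a type and less RNA per cell cannot be told apart.

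A probe was called detected on an array when its mean signal over 8 spots exceeded 95% of the spots left blank or empty on it. Between 487 and 934 of the 1687 probes, and between 19 and 39 of the 73, were detected per array. The fewest of the 73 were detected on bed day 6 replicates 2 and 3, with 19 on each, and intact replicate 2 and edge day 2 replicate 3 had 20 each. On bed day 6 replicate 3 the blank spots were the brightest of any array, with a 95th percentile of 10.50 on the log2 scale before normalization, against 8.13 to 10.19 on the other 20. The bed arrays of day 15 were not alike. Mean correlations were taken across the 974 tested probes, which are not independent replicates. Replicate 1 had a mean r of 0.899 with the bed arrays of day 2 and 0.808 with the others of its group. Replicate 2 had 0.863 with the edge arrays of day 15 and 0.837 within its group, and replicate 3 had 0.799 within its group. Scanning took place on 3 days. On the first were intact replicate 1 and the edge arrays numbered 1 and 2 of each wound day. The second took the other intact arrays, every bed array numbered 1 and every edge array numbered 3, and on the third were the remaining bed arrays. Bed and edge therefore share only the second scan day, with 1 array of each at each wound day. Levels below are normalized log2 signals, values after ± are SDs over 3 arrays, and a difference of 1 is a 2-fold change.

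All tested probes came from the UniGene clusters and the GenBank accessions. Of the 73 probes, 41 were detected on at least 3 of the 21 arrays and could be tested, or 56.2%, against 57.7% of all 1687 probes. The UniGene clusters made up 36 of these 41, and the GenBank accessions the other 5. None of the 9 RefSeq identifiers, 8 predicted and 1 curated, reached 3 arrays. A total of 13 probes were detected on all 21 arrays, which is 17.8% of the 73, against 19.1% of all probes. At the other end, 14 were detected on 1 or 2 arrays and 18 on none. By group, 32 of the 73 were detected on all 3 arrays in edge tissue of day 6, 28 in the day 2 bed and 15 in the day 6 bed.

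**Figure D1:**
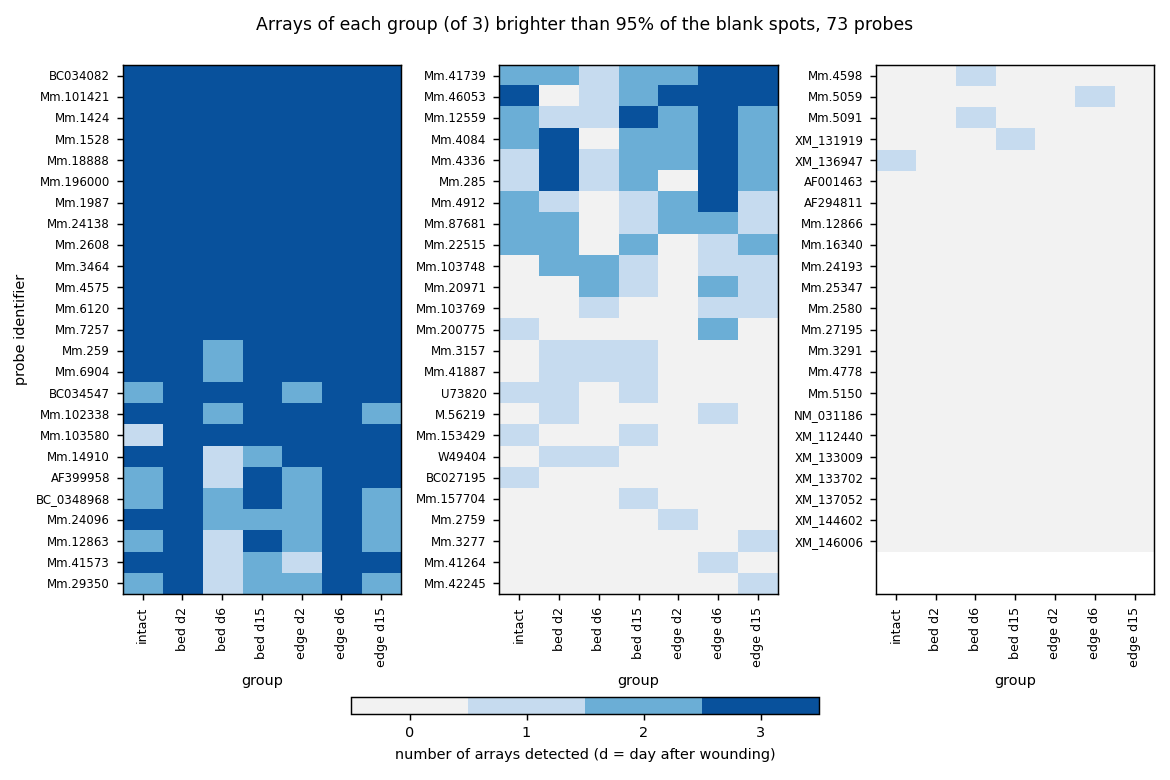
Number of arrays, of 3 in each group, on which each of the 73 probes was brighter than 95% of the blank and empty spots. Rows are probes sorted by their total over the 21 arrays, columns are groups, and darker blue means more arrays. The first 13 probes are dark in all 7 groups and the last 18 are light grey in all of them.

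A probe was called in a comparison at a limma p below 0.05 after Benjamini-Hochberg adjustment over all 974 tested probes. Over 13 comparisons of pairs of groups, 12 of the 41 tested probes were called at least once, or 29.3%, beside a background of 35.8% of all tested probes. All 28 calls of these 12 probes involved the wound bed. Against intact skin, 4 of the 41 were called in the bed at day 2 (background 8.52%), of which 2 were higher (4.31%) and 2 lower (4.21%). At day 6 there were 9 (19.3%), of which 6 were higher (9.34%) and 3 lower (9.96%). At day 15 there were 3 (12%), with 2 higher (5.54%) and 1 lower (6.47%). Against the edge of the same day, the bed had 3 calls at day 2 (8.93%), 1 higher (3.9%) and 2 lower (5.03%). It had 6 at day 6 (16.3%), 3 higher (8.01%) and 3 lower (8.32%), and 2 at day 15 (8.21%), 1 higher (3.9%) and 1 lower (4.31%). From day 2 to day 6 within the bed, 1 probe was called (6.47%), lower at day 6 (3.9%). The share higher in the bed than in intact skin at day 6 was 14.6%, above its background of 9.34%, and rests on 6 probes. The other shares lie near their backgrounds or below them. The balance of higher and lower calls differed with the scale, over these few calls and over all tested probes. Scaled to array medians, 2 of the 41 were higher and 3 lower between bed and intact skin at day 6, where all tested probes gave 47 higher and 98 lower (91 and 97 with quantile normalization). On that scale 0 were higher and 2 lower between bed and edge at day 6, where all tested probes gave 22 and 101 (78 and 81 with quantile normalization). Scaled to the 75th percentile of the probes that all arrays detected, 1 was higher and 3 lower between bed and intact skin at day 2, where all tested probes gave 36 and 58 (42 and 41 with quantile normalization). Leaving out 1 array of the groups compared moved a count by more than 1.5 times in these cases. For bed day 2 against intact it was 2 without intact replicate 1 or intact replicate 3 or bed day 2 replicate 3 in place of 4. For bed day 6 against intact it was 5 without intact replicate 3 in place of 9. For bed day 15 against intact it was 6 without bed day 15 replicate 3 in place of 3. For edge day 6 against intact it was 1 without edge day 6 replicate 1 in place of 0. For bed day 6 against edge day 6 it was 3 without edge day 6 replicate 1 or edge day 6 replicate 3 and 2 without edge day 6 replicate 2 in place of 6. For bed day 15 against edge day 15 it was 1 without bed day 15 replicate 3 or edge day 15 replicate 1 or edge day 15 replicate 3 in place of 2. For bed day 6 against bed day 2 it was 0 without bed day 2 replicate 2 or bed day 6 replicate 1 and 5 without bed day 6 replicate 3 in place of 1. For bed day 15 against bed day 6 it was 1 without bed day 6 replicate 2 or bed day 15 replicate 1 in place of 0. Arrays of other groups share the estimate of the spread and the normalization, and leaving out 1 of them also moved some counts by more than 1.5 times. Bed day 15 against intact skin then had 6 without bed day 6 replicate 2, and bed against edge at day 6 had 3 without edge day 15 replicate 2. The edge at day 6 against intact skin had 1 without bed day 6 replicate 2 or bed day 15 replicate 3. Bed day 6 against bed day 2 had 2 without intact replicate 2, bed day 15 replicate 1 or edge day 15 replicate 3, and 3 without bed day 15 replicate 3. Shares over all tested probes were not counted with an array left out.

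**Figure D2:**
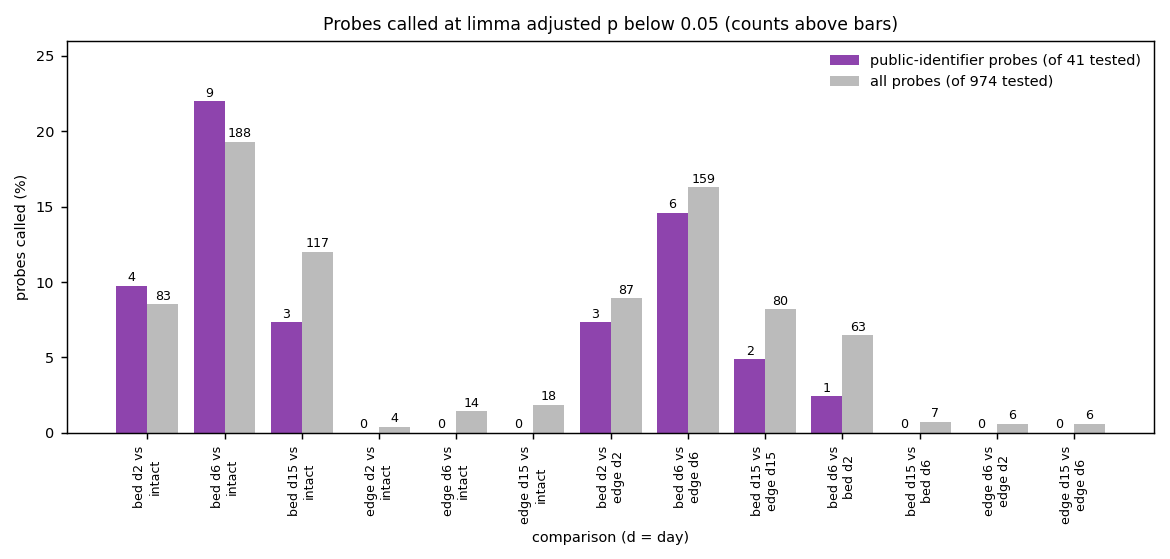
Percent of probes called in each of the 13 comparisons at a limma adjusted p below 0.05, for the 41 tested probes with a public identifier (purple) and all 974 tested probes (grey), with the counts above the bars. The highest pair is the bed at day 6 against intact skin, with 9 of 41 and 188 of 974.

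The F-test of any difference among the 7 groups called 7 of the 41 (background 26%), namely Mm.6904, BC034547, Mm.46053, Mm.18888, Mm.41573, Mm.6120 and Mm.103580. Without bed day 6 replicate 2 it called 11. With scan day as a block it called 5, without Mm.103580 and Mm.41573. The share over all tested probes was not counted in these alternatives. Over 30 alternatives, Mm.103580 was not called in 22, Mm.41573 in 3 and Mm.6120 in 2. The limma F-test for an interaction of tissue and day, over bed and edge, called 0 of the 41 (background 1.33%), and 5 had an unadjusted p below 0.05, or 12.2%, against 12.6% of all tested probes. Without bed day 15 replicate 1 it called Mm.41573 (adjusted p = 0.0115, against 0.136 with all arrays) and Mm.46053 (0.0015, against 0.341), and without bed day 2 replicate 1 it called Mm.41573 (0.0423). The median log2 difference from intact skin over the 41 was 0.15 in the bed at day 6, where the median over all 974 was -0.02. In the other 5 wound groups it lay between -0.16 and 0.11. By calls of the bed against intact skin or the edge, the 12 called probes fall into 4 with all lower and 8 with all higher. The call of Mm.41573 between bed days 2 and 6, lower at day 6, was left out of this split. The same split was not counted over the 349 called among all tested probes, and the balance of directions differed with the scale. In all 28 calls the arrays of the groups compared did not overlap. Arrays that do not overlap were common without a call. Bed and intact skin did not overlap for 13 of the 41 at day 2 (33.1% of all tested probes), 11 at day 6 (33%) and 8 at day 15 (26.3%). Bed and edge did not overlap for 13 (31.1%), 11 (33.3%) and 7 (30.1%), and bed days 2 and 6 for 9 (26.8%).

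**Figure D3:**
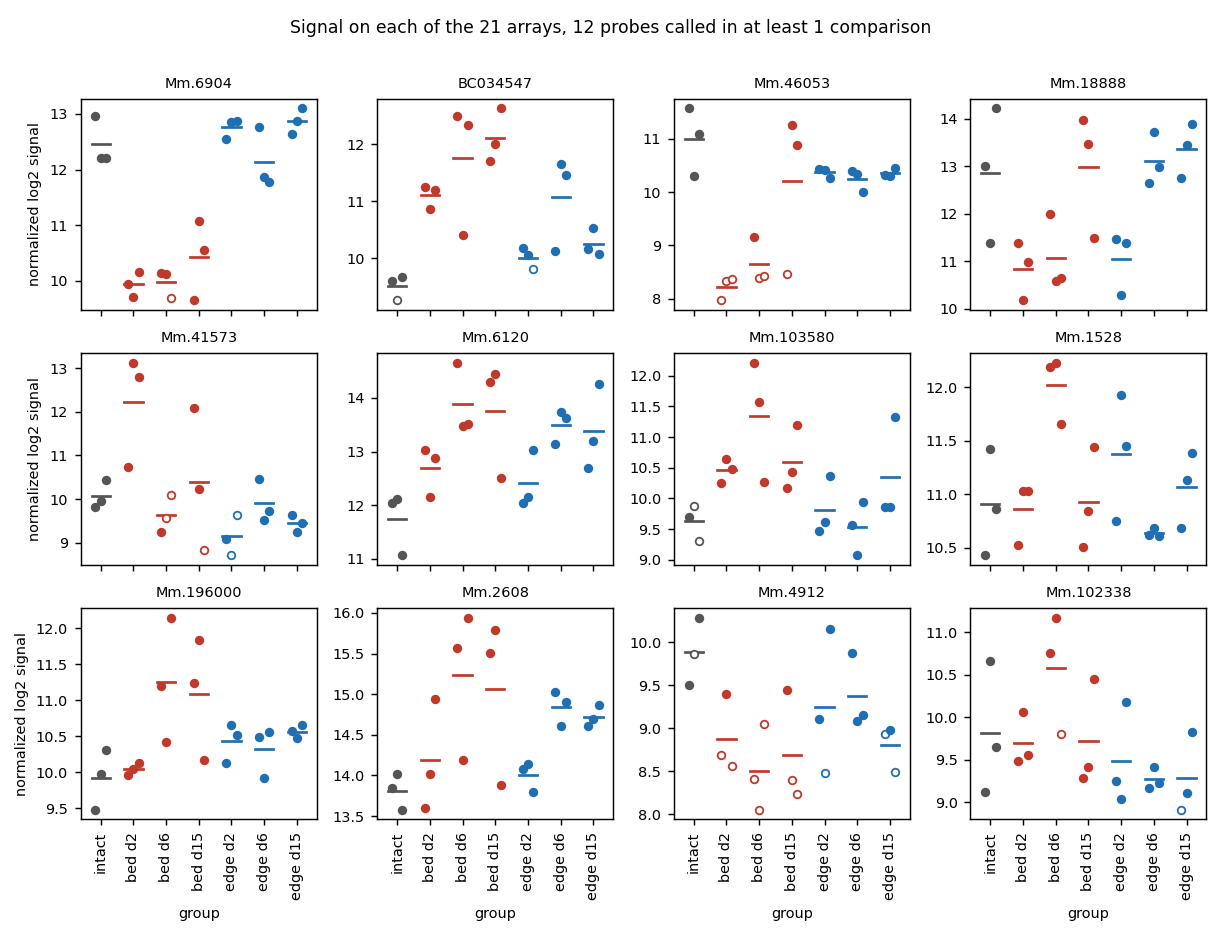
Normalized log2 signal on each array for the 12 probes called in at least 1 comparison, in 7 groups of 3 arrays (grey intact skin, red bed, blue edge, with replicates 1 to 3 from left to right). Filled points were detected on their array, open points were not, and bars are group means. Mm.6904 lies between 9.65 and 11.07 on the 9 bed arrays and between 11.77 and 13.10 on the other 12.

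The UniGene cluster Mm.6904 was lower in the bed than in both other tissues on every day. In intact skin, Mm.6904 had a log2 signal of 12.97, 12.21 and 12.20 on the 3 arrays. In the bed, Mm.6904 had 9.94, 9.72 and 10.16 at day 2, 10.14, 10.12 and 9.70 at day 6 and 9.65, 11.07 and 10.55 at day 15. In the edge, Mm.6904 had 12.56, 12.85 and 12.87 at day 2, 12.77, 11.86 and 11.77 at day 6 and 12.65, 12.87 and 13.10 at day 15. The highest bed array, day 15 replicate 2, was below the lowest of the 12 arrays of intact skin and edge. Against intact skin Mm.6904 fell by 2.52 (SE 0.36, limma adjusted p = 9.17e-05) at day 2, by 2.47 (SE 0.36, limma adjusted p = 9.56e-05) at day 6 and by 2.04 (SE 0.36, limma adjusted p = 0.000907) at day 15. These differences are 5.73-fold, 5.55-fold and 4.1-fold, all lower in the bed. Against the edge of the same day it fell by 2.82 (SE 0.36, limma adjusted p = 6.54e-05), fell by 2.15 (SE 0.36, limma adjusted p = 0.000807) and fell by 2.45 (SE 0.36, limma adjusted p = 0.000408). It was detected on 2 of 3 bed arrays at day 6 and on all arrays elsewhere. The edge did not pass the threshold against intact skin at any day, with log2 differences of 0.30, -0.32 and 0.41 (SE 0.36, adjusted p = 0.877, 0.837 and 0.859). Within the second scan day the bed array minus the edge array was -2.94, -1.64 and -3.45 at days 2, 6 and 15. All 6 calls held in each of 16 alternatives, with an adjusted p of at most 0.0402.

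Mm.46053 was lower in the bed at days 2 and 6. In intact skin, Mm.46053 had a log2 signal of 11.57, 10.31 and 11.08 on the 3 arrays. In the bed, Mm.46053 had 7.97, 8.33 and 8.37 at day 2, 9.16, 8.38 and 8.42 at day 6 and 8.46, 11.26 and 10.89 at day 15. In the edge, Mm.46053 had 10.43, 10.41 and 10.27 at day 2, 10.40, 10.33 and 10.00 at day 6 and 10.33, 10.31 and 10.45 at day 15. It was brighter than the blank spots on all 12 arrays of intact skin and edge, on 0 of 3 bed arrays at day 2, on 1 of 3 at day 6 and on 2 of 3 at day 15. At day 2 the bed was therefore lower than intact skin by at least 4.15-fold (limma adjusted p = 0.000793) and lower than the edge by at least 2.71-fold (adjusted p = 0.00749). These bounds divide the mean signal of the bright group by the detection limit of each bed array, or by the bed signal if it exceeded that limit. At day 6 the log2 level fell by 2.33 (SE 0.50, limma adjusted p = 0.00336) against intact skin and by 1.59 (SE 0.50, limma adjusted p = 0.0413) against the edge, where 2 of the 3 bed arrays did not detect it. At day 15 the bed arrays split. Replicate 1 was close to the arrays of day 2 and to replicates 2 and 3 of day 6. Replicates 2 and 3 of day 15 were within the range of intact skin. Without replicate 1 of day 15, bed day 15 against bed day 6 was called (2.42, SE 0.35, adjusted p = 0.00039). With all arrays no comparison of day 15 called it (against intact skin -0.79, adjusted p = 0.335). The calls of day 2 and that of day 6 against intact skin held in all 16 alternatives (adjusted p at most 0.0363). The day 6 call against the edge missed the threshold in 11 of the 16 alternatives (adjusted p from 0.0353 to 0.223), and blocking on scan day gave -1.88 (SE 0.59, adjusted p = 0.125). No call was left without bed day 6 replicate 2 (adjusted p = 0.133), bed day 6 replicate 3 (0.078), edge day 6 replicate 1 (0.09), edge day 6 replicate 2 (0.12) or edge day 6 replicate 3 (0.061), each left out alone.

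At day 6 Mm.18888 was lower in bed than in edge tissue, and its low groups were not confined to the bed. In intact skin, Mm.18888 had a log2 signal of 12.99, 11.38 and 14.21 on the 3 arrays. In the bed, Mm.18888 had 11.37, 10.17 and 10.98 at day 2, 11.99, 10.58 and 10.64 at day 6 and 13.97, 13.46 and 11.49 at day 15. In the edge, Mm.18888 had 11.46, 10.28 and 11.38 at day 2, 12.65, 13.71 and 12.98 at day 6 and 12.76, 13.44 and 13.88 at day 15. The arrays of the bed at days 2 and 6 and of the edge at day 2 read 11.99 or lower, and the 6 edge arrays of days 6 and 15 read 12.65 or higher. The fall in the bed against the edge at day 6 was 2.04 (SE 0.66, limma adjusted p = 0.0427). Against intact skin, whose arrays spread from 11.38 to 14.21, the bed differed by -2.02 (SE 0.66, limma adjusted p = 0.0617) at day 2 and the edge by -1.82 (SE 0.66, limma adjusted p = 0.259), and neither passed. Without intact replicate 2, 1 of the 3 dimmest arrays of the series, bed values were called lower at day 2 (-2.76, adjusted p = 0.0144) and at day 6 (-2.53, adjusted p = 0.0153). The day 6 call against the edge missed the threshold in 10 of the 16 alternatives (adjusted p from 0.0299 to 0.43), and blocking on scan day gave -1.37 (SE 0.76, adjusted p = 0.43). The call ended without bed day 6 replicate 2 (adjusted p = 0.159), bed day 6 replicate 3 (0.094), edge day 6 replicate 1 (0.0605), edge day 6 replicate 2 (0.155) or edge day 6 replicate 3 (0.078), each left out alone.

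Mm.4912 was lower in the bed than in intact skin at day 6, near the level of the blank spots. In intact skin, Mm.4912 had a log2 signal of 9.50, 9.86 and 10.29 on the 3 arrays. In the bed, Mm.4912 had 8.69, 9.39 and 8.56 at day 2, 8.40, 8.05 and 9.05 at day 6 and 9.44, 8.39 and 8.23 at day 15. In the edge, Mm.4912 had 9.10, 8.48 and 10.16 at day 2, 9.88, 9.09 and 9.15 at day 6 and 8.93, 8.98 and 8.49 at day 15. The group means were 9.88 ± 0.39 in intact skin and 8.50 ± 0.51 in the bed at day 6, with 2 of 3 and 0 of 3 arrays detected. The call had a limma adjusted p = 0.0313, and the 3 bed arrays lay below the 3 intact arrays. No fold is given, since the bed arrays of day 6 and intact replicate 2 were not above the blank spots. At day 15 the bed differed from intact skin by -1.19 (SE 0.43, limma adjusted p = 0.073), which did not pass. The day 6 call missed the threshold in 8 of the 16 alternatives (adjusted p from 0.0197 to 0.181), and blocking on scan day gave -1.32 (SE 0.51, adjusted p = 0.132). It also ended without intact replicate 2 (adjusted p = 0.0521), intact replicate 3 (0.126), bed day 6 replicate 1 (0.0693) or bed day 6 replicate 2 (0.114), each left out alone.

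The cDNA clone BC034547 was higher in the bed than in intact skin on all 3 days. In intact skin, BC034547 had a log2 signal of 9.60, 9.26 and 9.68 on the 3 arrays. In the bed, BC034547 had 11.26, 10.88 and 11.20 at day 2, 12.50, 10.41 and 12.34 at day 6 and 11.71, 12.01 and 12.63 at day 15. In the edge, BC034547 had 10.18, 10.06 and 9.81 at day 2, 10.13, 11.65 and 11.46 at day 6 and 10.17, 10.53 and 10.07 at day 15. All 9 bed arrays read above the 3 intact arrays, of which replicates 1 and 3 were brighter than the blank spots and replicate 2 was not. The bed was higher by 1.60 (SE 0.46, limma adjusted p = 0.032) at day 2, by 2.24 (SE 0.46, limma adjusted p = 0.00265) at day 6 and by 2.60 (SE 0.46, limma adjusted p = 0.000907) at day 15, which is 3.02-fold, 4.71-fold and 6.07-fold. Day 6 against day 2 within the bed gave 0.64 (SE 0.46, limma adjusted p = 0.402), which did not pass. At day 15 the bed was also higher than the edge, by 1.86 (SE 0.46, limma adjusted p = 0.0156). The edge means were 10.01 ± 0.19, 11.08 ± 0.83 and 10.26 ± 0.24 at days 2, 6 and 15. Edge replicates 2 and 3 of day 6 read above all 3 bed arrays of day 2, and edge against intact skin at day 6 gave 1.56 (SE 0.46, limma adjusted p = 0.139). That edge difference was called without edge day 6 replicate 1 (2.04, adjusted p = 0.0334) and without bed day 6 replicate 2 (adjusted p = 0.0214), each left out alone. The calls against intact skin at days 6 and 15 held in all 16 alternatives (adjusted p at most 0.0341). The day 2 call missed the threshold in 10 of the 16 alternatives (adjusted p from 0.00428 to 0.133), and blocking on scan day gave 1.77 (SE 0.56, adjusted p = 0.0704). It was not called without intact replicate 1 (adjusted p = 0.07), intact replicate 2 (0.106), intact replicate 3 (0.0676), bed day 2 replicate 1 (0.0971), bed day 2 replicate 2 (0.052) or bed day 2 replicate 3 (0.0929), each left out alone. The call against the edge at day 15 missed the threshold in 6 of the 16 alternatives (adjusted p from 0.0105 to 0.0824), and blocking on scan day gave 2.05 (SE 0.60, adjusted p = 0.0824). No call was left without bed day 15 replicate 3 (adjusted p = 0.0709), edge day 15 replicate 1 (0.0592) or edge day 15 replicate 3 (0.0571), each left out alone.

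Mm.6120 was higher in the bed than in intact skin at days 6 and 15, and was detected on all 21 arrays. In intact skin, Mm.6120 had a log2 signal of 12.04, 12.12 and 11.07 on the 3 arrays. In the bed, Mm.6120 had 13.04, 12.16 and 12.87 at day 2, 14.65, 13.48 and 13.52 at day 6 and 14.29, 14.45 and 12.51 at day 15. In the edge, Mm.6120 had 12.04, 12.16 and 13.04 at day 2, 13.14, 13.74 and 13.62 at day 6 and 12.70, 13.20 and 14.25 at day 15. All 3 bed arrays of day 6 read 13.48 or higher, and the highest intact array read 12.12. The bed was higher by 2.13 (SE 0.51, limma adjusted p = 0.00724) at day 6 and by 2.00 (SE 0.51, limma adjusted p = 0.0143) at day 15, or 4.39-fold and 4.01-fold. Between bed and edge, the log2 differences were 0.38 at day 6 and 0.36 at day 15 (SE 0.51, adjusted p = 0.63 and 0.7). The edge differed from intact skin by 1.75 (SE 0.51, limma adjusted p = 0.138) at day 6 and by 1.64 (SE 0.51, limma adjusted p = 0.117) at day 15, without passing. The day 6 edge value was past the threshold after blocking on scan day (1.91, adjusted p = 0.0474), with these 6 arrays fitted alone (adjusted p = 0.0493) and without bed day 15 replicate 3 (adjusted p = 0.0417). The bed call of day 6 held in all 16 alternatives (adjusted p at most 0.0489). The bed call of day 15 missed the threshold in 3 of the 16 alternatives (adjusted p from 0.0023 to 0.0823). The call ended without intact replicate 3 (adjusted p = 0.0823) or bed day 15 replicate 2 (0.0621), each left out alone.

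Mm.103580 was highest in the bed at day 6, where it was above both intact skin and the edge. In intact skin, Mm.103580 had a log2 signal of 9.69, 9.88 and 9.31 on the 3 arrays. In the bed, Mm.103580 had 10.25, 10.65 and 10.48 at day 2, 12.21, 11.57 and 10.27 at day 6 and 10.17, 10.42 and 11.20 at day 15. In the edge, Mm.103580 had 9.46, 9.61 and 10.37 at day 2, 9.57, 9.08 and 9.94 at day 6 and 9.87, 9.85 and 11.32 at day 15. Bed day 6 replicate 3 read lowest of its group and was still above the 6 arrays of intact skin and of the edge at day 6. The bed was higher than intact skin by 1.72 (SE 0.47, limma adjusted p = 0.0152), with 1 of 3 intact arrays detected, the others being no brighter than blank spots. It was higher than the edge by 1.82 (SE 0.47, limma adjusted p = 0.0154). The call against intact skin missed the threshold in 6 of the 16 alternatives (adjusted p from 0.00288 to 0.0761), and blocking on scan day gave 1.56 (SE 0.51, adjusted p = 0.0711). It also ended without intact replicate 3 (adjusted p = 0.066) or bed day 6 replicate 1 (0.0761), each left out alone. The call against the edge missed the threshold in 6 of the 16 alternatives (adjusted p from 0.00416 to 0.224), and blocking on scan day gave 1.42 (SE 0.55, adjusted p = 0.224). It was not called without bed day 6 replicate 1 (adjusted p = 0.0568), bed day 6 replicate 2 (0.0578) or edge day 6 replicate 2 (0.0809), each left out alone.

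Mm.1528, detected on all 21 arrays, was likewise higher in the bed at day 6 than in intact skin and the edge. In intact skin, Mm.1528 had a log2 signal of 10.43, 11.42 and 10.87 on the 3 arrays. In the bed, Mm.1528 had 10.53, 11.03 and 11.03 at day 2, 12.19, 12.23 and 11.65 at day 6 and 10.51, 10.84 and 11.44 at day 15. In the edge, Mm.1528 had 10.75, 11.93 and 11.45 at day 2, 10.62, 10.68 and 10.61 at day 6 and 10.68, 11.14 and 11.39 at day 15. The edge arrays of day 6 lay between 10.61 and 10.68. The bed was higher than intact skin by 1.12 (SE 0.35, limma adjusted p = 0.0333) and than the edge by 1.38 (SE 0.35, limma adjusted p = 0.015). From day 2 to day 6 the bed differed by 1.16 (SE 0.35, limma adjusted p = 0.0524), which did not pass. At day 15 the bed mean was 10.93 ± 0.47, next to 10.91 ± 0.50 in intact skin. The call against intact skin missed the threshold in 8 of the 16 alternatives (adjusted p from 0.0224 to 0.255), and blocking on scan day gave 0.81 (SE 0.41, adjusted p = 0.255). No call was left without intact replicate 1 (adjusted p = 0.143), intact replicate 3 (0.0928), bed day 6 replicate 1 (0.0837) or bed day 6 replicate 2 (0.0941), each left out alone. The call against the edge missed the threshold in 4 of the 16 alternatives (adjusted p from 0.0121 to 0.294), and blocking on scan day gave 0.98 (SE 0.44, adjusted p = 0.294). The call ended without bed day 6 replicate 2 (adjusted p = 0.0551).

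Mm.196000 and Mm.2608 were each detected on all 21 arrays and higher in the bed than in intact skin at day 6. In intact skin, Mm.196000 had a log2 signal of 9.48, 9.98 and 10.31 on the 3 arrays. In the bed, Mm.196000 had 9.97, 10.04 and 10.13 at day 2, 11.19, 10.42 and 12.15 at day 6 and 11.24, 11.83 and 10.17 at day 15. In the edge, Mm.196000 had 10.13, 10.65 and 10.52 at day 2, 10.49, 9.93 and 10.55 at day 6 and 10.57, 10.47 and 10.65 at day 15. The lowest bed array of day 6 was just above the highest intact array, and the bed arrays of day 15 overlapped with those of intact skin. Mm.196000 was higher in the bed at day 6 by 1.33 (SE 0.41, limma adjusted p = 0.0313), and at day 15 it differed by 1.16 (SE 0.41, limma adjusted p = 0.0716) without passing. In intact skin, Mm.2608 had a log2 signal of 13.85, 14.02 and 13.58 on the 3 arrays. In the bed, Mm.2608 had 13.60, 14.02 and 14.94 at day 2, 15.57, 14.18 and 15.94 at day 6 and 15.51, 15.79 and 13.88 at day 15. In the edge, Mm.2608 had 14.08, 14.14 and 13.80 at day 2, 15.03, 14.61 and 14.90 at day 6 and 14.61, 14.69 and 14.86 at day 15. All 3 bed arrays of day 6 were above the 3 intact arrays, and bed day 15 replicate 3 was within the intact range. Mm.2608 was higher in the bed at day 6 by 1.42 (SE 0.47, limma adjusted p = 0.038), and at day 15 the difference was 1.25 (SE 0.47, limma adjusted p = 0.085). Without bed day 15 replicate 3, the day 15 bed was called higher for Mm.196000 (1.61, adjusted p = 0.017) and for Mm.2608 (1.84, adjusted p = 0.0123), and without bed day 6 replicate 2 as well (0.0391 and 0.0431). Mm.2608 was the only one of the 73 with saturated spots, 4 of 8 on bed day 6 replicate 3, 3 on bed day 15 replicate 1 and 6 on bed day 15 replicate 2. A saturated spot gives only a lower bound of its signal, which limits the bed differences of Mm.2608 at days 6 and 15. The Mm.196000 call missed the threshold in 10 of the 16 alternatives (adjusted p from 0.0094 to 0.166), and blocking on scan day gave 1.23 (SE 0.50, adjusted p = 0.143). It also ended without intact replicate 1 (adjusted p = 0.127), intact replicate 2 (0.0503), bed day 6 replicate 1 (0.0538) or bed day 6 replicate 3 (0.121), each left out alone. The Mm.2608 call missed the threshold in 10 of the 16 alternatives (adjusted p from 0.00879 to 0.209), and blocking on scan day gave 1.49 (SE 0.58, adjusted p = 0.128). It was not called without intact replicate 1 (adjusted p = 0.0919), intact replicate 2 (0.0507), intact replicate 3 (0.126), bed day 6 replicate 1 (0.112) or bed day 6 replicate 3 (0.125), each left out alone.

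Mm.102338 was called once, as higher in bed than in edge tissue at day 6. In intact skin, Mm.102338 had a log2 signal of 9.11, 10.66 and 9.65 on the 3 arrays. In the bed, Mm.102338 had 9.48, 10.06 and 9.55 at day 2, 10.75, 11.17 and 9.80 at day 6 and 9.29, 9.41 and 10.45 at day 15. In the edge, Mm.102338 had 9.24, 9.04 and 10.17 at day 2, 9.17, 9.41 and 9.23 at day 6 and 8.91, 9.11 and 9.82 at day 15. The 3 bed arrays lay above the 3 edge arrays, and the intact arrays spread from 9.11 to 10.66. The difference was 1.30 (SE 0.44, limma adjusted p = 0.0498), with 2 of 3 bed arrays detected. This call missed the threshold in 14 of the 16 alternatives (adjusted p from 0.0226 to 0.574), and blocking on scan day gave 0.68 (SE 0.51, adjusted p = 0.574). No call was left without bed day 6 replicate 1 (adjusted p = 0.107), bed day 6 replicate 2 (0.208), edge day 6 replicate 1 (0.108), edge day 6 replicate 2 (0.12) or edge day 6 replicate 3 (0.107), each left out alone.

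Mm.41573 was highest in the bed at day 2 and lower there by day 6. In intact skin, Mm.41573 had a log2 signal of 9.82, 9.96 and 10.45 on the 3 arrays. In the bed, Mm.41573 had 10.74, 13.12 and 12.79 at day 2, 9.24, 9.57 and 10.10 at day 6 and 12.08, 10.23 and 8.84 at day 15. In the edge, Mm.41573 had 9.09, 8.72 and 9.64 at day 2, 10.46, 9.51 and 9.74 at day 6 and 9.63, 9.24 and 9.46 at day 15. At day 2 the 3 bed arrays were above the 3 arrays of intact skin and of the edge, with replicate 1 the lowest of the bed. The bed was higher by 2.14 (SE 0.62, limma adjusted p = 0.0343) than intact skin and by 3.07 (SE 0.62, limma adjusted p = 0.00324) than the edge, where 1 of 3 arrays was detected. From day 2 to day 6 it fell by 2.58 (SE 0.62, limma adjusted p = 0.017) in the bed, to a group with 1 of 3 arrays detected. At day 15 the bed arrays ran from 8.84 to 12.08, and the highest was replicate 1, the array that correlated best with the day 2 bed. Within the second scan day, which holds bed replicate 1, the bed at day 2 was 0.54 above intact skin and 1.10 above the edge. The call against the edge held in all 16 alternatives (adjusted p from 0.000746 to 0.0438). The call against intact skin missed the threshold in 9 of the 16 alternatives (adjusted p from 0.00513 to 0.159), and blocking on scan day gave 2.01 (SE 0.77, adjusted p = 0.147). The call ended without intact replicate 1 (adjusted p = 0.102), intact replicate 2 (0.0938), intact replicate 3 (0.0598), bed day 2 replicate 2 (0.159) or bed day 2 replicate 3 (0.134), each left out alone. The fall from day 2 to day 6 missed the threshold in 5 of the 16 alternatives (adjusted p from 0.0058 to 0.0842). It also ended without bed day 2 replicate 2 (adjusted p = 0.0842), bed day 2 replicate 3 (0.0636), bed day 6 replicate 1 (0.0607) or bed day 6 replicate 2 (0.0589), each left out alone.

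No probe of the 41 was called between the edge and intact skin by limma, at day 2 (background 0.411%), day 6 (1.44%) or day 15 (1.85%). At an unadjusted p below 0.05 there were 1, 3 and 4 of the 41, or 2.44%, 7.32% and 9.76%, against 9.65%, 10.2% and 10.9% of all tested probes. None was called between edge days 2 and 6 (background 0.616%), between edge days 6 and 15 (0.616%) or between bed days 6 and 15 (0.719%), where 5, 0 and 6 of the 41 had an unadjusted p below 0.05, or 12.2%, 0% and 14.6%, against 5.24%, 5.03% and 11.7% of all tested probes. The edge comparisons rest on the same 3 intact arrays as those of the bed. The smallest adjusted p of the edge against intact skin was 0.117, for Mm.6120 at day 15.

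**Figure D4:**
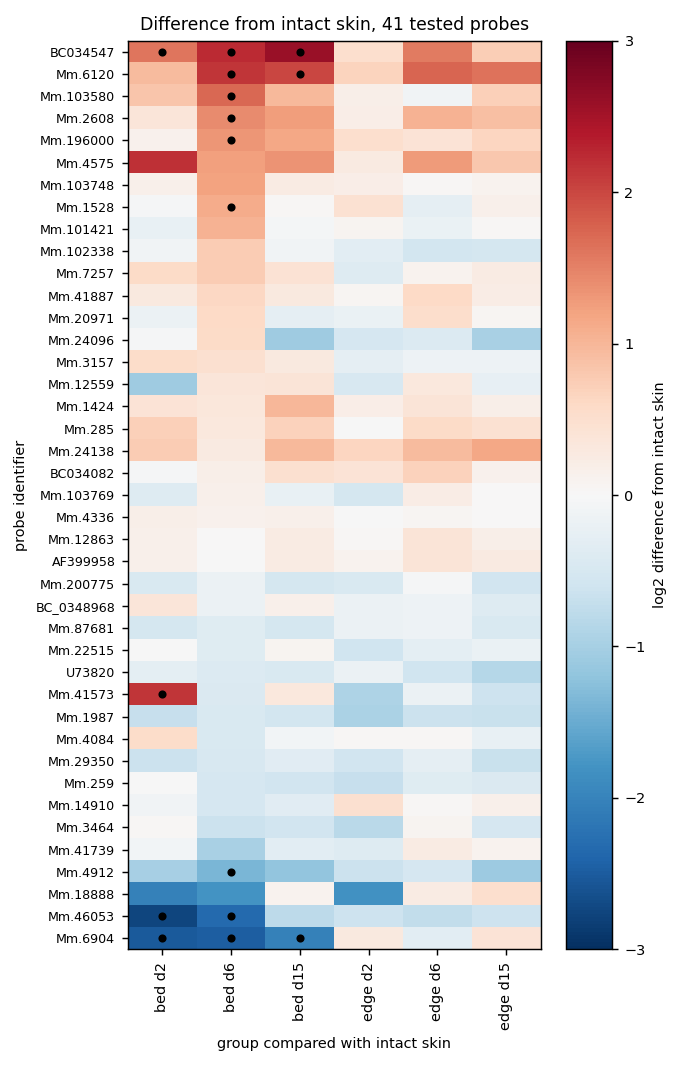
Log2 difference from intact skin in the 6 wound groups for the 41 tested probes, sorted by the bed at day 6 (red higher, blue lower). Black dots mark calls at a limma adjusted p below 0.05, of which there are 16, all in the 3 bed columns. BC034547 and Mm.6120 are at the top, and Mm.6904 and Mm.46053 at the bottom.

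The other 29 tested probes were called in no comparison, and their smallest adjusted p in the F-test among the 7 groups was 0.108. In 19 of them the group means spanned less than 2 SDs of the arrays within a group. Of the 8 that were detected on all 21 arrays, Mm.4575 had the widest span. In intact skin, Mm.4575 had a log2 signal of 10.57, 11.13 and 10.59 on the 3 arrays. In the bed, Mm.4575 had 13.77, 11.83 and 13.28 at day 2, 13.58, 10.13 and 12.25 at day 6 and 12.33, 12.89 and 11.09 at day 15. In the edge, Mm.4575 had 11.47, 11.68 and 9.92 at day 2, 10.76, 12.60 and 12.79 at day 6 and 11.29, 11.79 and 11.67 at day 15. The 3 bed arrays of day 2 were above the 3 intact arrays, and the difference was 2.20 (SE 0.73, limma adjusted p = 0.0665). It passed after blocking on scan day (3.08, SE 0.80, adjusted p = 0.022) and with these 6 arrays fitted alone (adjusted p = 0.0115). Mm.101421 was highest in the bed at day 6, with 11.63, 11.98 and 10.72, against 9.98, 11.10 and 10.12 in intact skin and 10.54, 10.01 and 10.07 in the edge. Its bed arrays overlapped with those of intact skin and not with those of the edge. Its differences were 1.04 (SE 0.43, limma adjusted p = 0.0969) from intact skin and 1.24 (SE 0.43, limma adjusted p = 0.0544) from the edge, which did not pass. Mm.3464 had group means from 11.89 in the edge at day 2 to 12.77 in the edge at day 6, with an SD within groups of 0.51. Mm.1424 had group means from 11.98 in intact skin to 12.96 in the bed at day 15, with an SD within groups of 0.49. BC034082 had group means from 11.65 in the bed at day 2 to 12.39 in the edge at day 6, with an SD within groups of 0.42. The group means of each of these 3 spanned less than 1 on the log2 scale. Mm.24138 had group means from 11.33 in intact skin to 12.49 in the edge at day 15, with an SD within groups of 0.74. Mm.1987 had group means from 14.41 in the edge at day 2 to 15.35 in intact skin, with an SD within groups of 0.60. Mm.7257 had group means from 11.24 in the edge at day 2 to 12.39 in the bed at day 6, with an SD within groups of 0.86. Mm.1987 had its highest mean in intact skin, and Mm.24138 its lowest.

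A further 21 uncalled probes were detected on 3 to 20 of the 21 arrays, so that part of their signals lay at the level of the blank spots. Their highest group mean was in the bed for 11, in the edge for 5 and in intact skin for 5. The bed at day 6 was highest for 4. Mm.24096 ran from 9.24 ± 1.26 in the bed at day 15 to 10.87 ± 1.58 in the bed at day 6. Mm.103748 ran from 8.87 ± 0.59 in intact skin to 10.09 ± 0.73 in the bed at day 6. Mm.20971 ran from 8.62 ± 0.76 in the bed at day 15 to 9.48 ± 0.54 in the bed at day 6. The bed arrays of each overlapped with those of intact skin. Mm.41887 ran from 8.14 ± 0.34 in intact skin to 8.75 ± 0.48 in the bed at day 6. The difference of these groups was not called (limma adjusted p = 0.179), and with scan day as a block it was 1.10 (SE 0.33, adjusted p = 0.0458). The bed at day 2 was highest for 5. Mm.3157 ran from 8.22 ± 0.11 in the edge at day 2 to 9.03 ± 0.25 in the bed at day 2. Between bed and edge at day 6 it was not called (limma adjusted p = 0.153). Scaled to each array's 75th percentile it was called higher in the bed there (adjusted p = 0.0279). The 75th percentile of the probes that all arrays detected gave an adjusted p of 0.0323. Mm.285 ran from 8.77 ± 0.23 in the edge at day 2 to 9.48 ± 0.02 in the bed at day 2. Mm.4084 ran from 8.92 ± 0.69 in the bed at day 6 to 9.92 ± 0.28 in the bed at day 2. These 3 were detected on 3, 12 and 14 arrays. BC_0348968, which is not in the usual form of an accession and was counted with the GenBank accessions, ran from 9.55 ± 0.25 in the edge at day 15 to 10.29 ± 0.22 in the bed at day 2. Mm.4336 ran from 9.19 ± 0.22 in the edge at day 2 to 9.37 ± 0.07 in the bed at day 2. Mm.4336 had the narrowest span of group means of the 41, 0.18 on the log2 scale. The bed at day 15 was highest for 2. Mm.12559 ran from 8.31 ± 0.72 in the bed at day 2 to 9.76 ± 0.57 in the bed at day 15. Mm.22515 ran from 8.54 ± 0.54 in the edge at day 2 to 9.22 ± 1.20 in the bed at day 15. Mm.12559 was lowest in the bed at day 2, and its difference between bed days 6 and 2 did not pass, at 1.41 (SE 0.45, limma adjusted p = 0.0624). It passed when scaled to the 75th percentile of each array (adjusted p = 0.0261) or of the probes that all arrays detected (0.0185). Without the 3 dimmest arrays (0.0438) or without edge day 15 replicate 3 (0.0417) it passed as well. The edge was highest for 5. Mm.14910 ran from 9.32 ± 0.19 in the bed at day 6 to 10.31 ± 0.23 in the edge at day 2. Mm.41739 ran from 8.74 ± 0.79 in the bed at day 6 to 9.95 ± 0.29 in the edge at day 6. Mm.103769 ran from 8.15 ± 0.36 in the edge at day 2 to 8.90 ± 0.30 in the edge at day 6. Mm.14910 and Mm.41739 were lowest in wound groups, not in intact skin. Mm.12863 ran from 9.19 ± 0.15 in intact skin to 9.57 ± 0.13 in the edge at day 6. AF399958 ran from 9.28 ± 0.49 in the bed at day 6 to 9.67 ± 0.48 in the edge at day 6. Intact skin was highest for 5. Mm.259 ran from 10.19 ± 0.76 in the edge at day 2 to 10.89 ± 0.53 in intact skin. Mm.29350 ran from 9.23 ± 0.37 in the edge at day 15 to 9.89 ± 0.27 in intact skin. U73820 ran from 8.10 ± 0.40 in the edge at day 15 to 8.95 ± 0.09 in intact skin. Mm.259 was detected on 20 arrays, Mm.29350 on 15 and U73820 on 3. Mm.200775 ran from 8.32 ± 0.47 in the edge at day 15 to 8.90 ± 0.82 in intact skin. Mm.87681 ran from 8.82 ± 0.64 in the bed at day 15 to 9.35 ± 0.70 in intact skin.

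Several of these 29 probes passed the limma threshold when 1 array was left out, mostly 1 of the bed at day 6. Without bed day 6 replicate 2, Mm.1424 (1.04, adjusted p = 0.0127), Mm.7257 (1.83, adjusted p = 0.012), Mm.24096 (1.48, adjusted p = 0.045) and Mm.4575 (2.15, adjusted p = 0.045) were called higher in day 6 bed than in intact skin. Without bed day 6 replicate 3, Mm.101421 (1.40, adjusted p = 0.0364) and Mm.103748 (1.63, adjusted p = 0.0197) were called higher there, and Mm.4084 was called lower at day 6 than at day 2 in the bed (-1.33, adjusted p = 0.0289). Without bed day 6 replicate 1, Mm.41739 was called lower in bed than in edge tissue at day 6 (-1.67, adjusted p = 0.0171). Without bed day 2 replicate 3, Mm.12559 was called higher at day 6 than at day 2 in the bed (1.81, adjusted p = 0.0335). Without bed day 15 replicate 3, Mm.24138 was called higher in day 15 bed than in intact skin (1.70, adjusted p = 0.0493). With all 21 arrays and quantile normalization none of these differences was called. Bed day 6 replicates 2 and 3 are the arrays on which the fewest of the 73 were detected.

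The remaining 32 probes did not reach 3 arrays and were tested only in the alternative without this filter on dim probes. There the F-test among the 7 groups called BC027195, W49404 and NM_031186 of these 32. Ndst3 (NM_031186), whose product is 1 of a family of enzymes that start the sulfation of heparan sulfate, was brighter than the blank spots on none of the 21 arrays. It read 7.63, 6.98 and 7.53 in intact skin, 8.23, 8.12 and 8.15 in the bed at day 6 and 7.28, 7.39 and 7.29 in the edge at day 6, all below the 95th percentile of the blank spots. Without the filter, limma called Ndst3 higher in the bed at day 6 than in intact skin (0.79, SE 0.25, adjusted p = 0.0448). It was also called higher there than in the edge (0.84, SE 0.25, adjusted p = 0.0397). Since all these signals lay at the level of the blank spots, they give no level of Ndst3 in any group. The source of the differences was not tested, and the signals do not show that the transcript is absent. Over all 32, the bed at day 6 had the highest mean for 13 (40.6%), and over all 713 untested probes for 22.9%. The lowest normalized signal that counted as detected was 9.10, 9.90 and 10.17 on the bed day 6 arrays and 8.60 to 9.93 on the other 18 arrays, and its part in these counts was not tested.

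Of the 14 probes detected on 1 or 2 arrays, 3 were detected on bed day 15 replicate 1, and no other array had more than 2. The EST W49404, a single-read cDNA sequence, was detected on bed day 2 replicate 2 and bed day 6 replicate 3. It read 8.65, 9.65 and 10.64 in the bed at day 6, 8.11, 7.77 and 8.49 in intact skin and 7.32, 7.84 and 7.75 in the edge at day 6. Bed day 6 replicate 3, its highest array, is also the array with the brightest blank spots, and the part of those spots in its signal was not tested. Mm.153429 was detected on intact replicate 3 at 9.78 and on bed day 15 replicate 1 at 9.11. M.56219 was detected on bed day 2 replicate 2 at 9.19 and on edge day 6 replicate 1 at 9.21. Single arrays detected the other 11, namely BC027195 and XM_136947 on intact replicate 1, Mm.4598 and Mm.5091 on bed day 6 replicate 1, Mm.157704 and XM_131919 on bed day 15 replicate 1, and Mm.2759, Mm.3277, Mm.41264, Mm.42245 and Mm.5059 on edge arrays. On intact replicate 1, XM_136947 read 9.61, against 7.27 and 7.90 on the other intact arrays. The 18 detected on no array were Ndst3, 6 of the 8 predicted mRNAs (XM_112440, XM_133009, XM_133702, XM_137052, XM_144602 and XM_146006), the GenBank accessions AF001463 and AF294811, and the UniGene clusters Mm.12866, Mm.16340, Mm.24193, Mm.25347, Mm.2580, Mm.27195, Mm.3291, Mm.4778 and Mm.5150. Of these, Ndst3 and XM_112440 were called without the filter, Ndst3 as given above. XM_112440 was higher in the bed at day 6 than in intact skin (1.29, SE 0.41, limma adjusted p = 0.045).

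Because bed and edge arrays were mostly scanned on different days, each call was also computed with scan day as a block. Scan day itself was called for 2 of the 974 probes and for 0 of the 41, of which 1 had an unadjusted p below 0.05. With the block, 15 of the 28 calls passed and 13 did not, and all 28 had the same direction. The 15 were the 6 calls of Mm.6904, the calls of Mm.46053 at day 2 and against intact skin at day 6, those of BC034547 at days 6 and 15 against intact skin, both calls of Mm.6120, and the calls of Mm.41573 against the edge at day 2 and between bed days. In the bed against the edge at day 6, Mm.18888 moved from -2.04 to -1.37 and Mm.102338 from 1.30 to 0.68. The differences of Mm.6120 from intact skin moved away from 0, to 2.52 at day 6 and 2.39 at day 15. Intact skin and bed share only scan day 2, so within a scan day no comparison of the bed with another tissue has more than 1 bed array of a wound day.

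**Figure D5:**
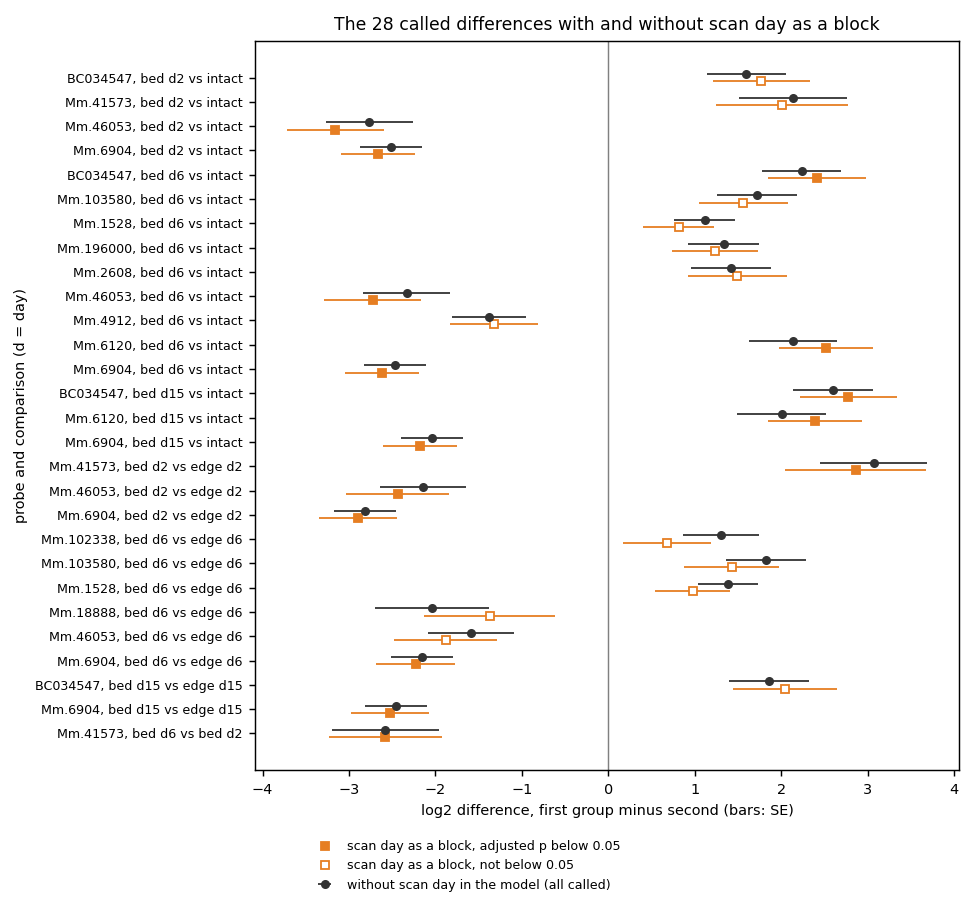
Log2 difference of the 28 called comparisons without scan day in the model (black) and with scan day as a block (orange, filled where the adjusted p stays below 0.05), with bars for SE. The points stay on the same side of 0 in all 28, and 15 of the orange squares are filled.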

How the data were processed

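RNA of mouse skin (500 ng per array) was hybridised to 21 arrays in 1 colour, and the images were scanned at 532 nm, per the labels' protocols and file headers. The scanner output holds the mean signal intensity and the local background of 13824 spots per array, deposited by the authors without normalization. The authors' deposited table holds a score per probe on a log scale. It was rebuilt to within 0.00119 as the log of the mean signal rescaled per array (median 1, SD 0.2), and served as an alternative. From the intensities, background was corrected with normexp (offset 50), spots with flag 1 were left out (118 of 12264 spots of the 73 probes), log2 values of the 8 spots of a probe were averaged, and arrays were quantile normalized (limma 3.58.1, R 4.3.3). The 974 probes detected on at least 3 arrays were fitted with 7 group means (14 residual degrees of freedom), eBayes and Benjamini-Hochberg adjustment. The fit was tested on simulated data. The number of arrays limits the precision. Labels name the arrays as replicates, and p-values measure the spread between them, which may be technical where the tissue was not from separate animals. Alternatives were other background and scale settings, no filter, the deposited table, scan day or replicate number as a block, only the arrays compared, and leaving out arrays. Replicate numbers were not taken to pair the samples. The correlation of deviations of same-numbered arrays ran from -0.244 to 0.0786 over 9 pairs of a bed and an edge array of the same day. Same-numbered bed and edge arrays were always scanned on different days, so this check cannot exclude that they came from the same animal. Probes called at least once are described on every array, most other tested probes by their lowest and highest group means, and most untested probes by the arrays that detected them. The probes described and the lists were chosen with earlier results of these data known. NM_152803 and NM_010180 are not reported here.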

Additional observations from a re-analysis of the deposited data

How the results depend on the processing

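None of the 28 calls reversed in the 16 settings tried for each, and 13 held in all of them. Of the 28, the number that held was 27 without background correction, 25 when scaled to each array's 75th percentile, 21 with that percentile taken over probes that all arrays detected, 18 when scaled to array medians, 26 without the filter, 23 with the deposited table, 15 with scan day as a block, 17 with only the arrays compared and 23 without the 3 dimmest arrays. Slide was not run as a block, since each of the 21 arrays has its own. The cause of these shifts was not tested.

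Of the 41 probes, 9 were called in day 6 bed against intact skin, which became 5 with the percentile of probes that all arrays detected, 5 with the median, 5 with scan day as a block and 4 with only the arrays compared. Over all tested probes the share called also fell, from 19.3% to 12.8% with that percentile and 14.9% with the median. In day 6 edge against intact skin, 0 became 1 with scan day as a block and 1 with only the arrays compared. Between bed and edge at day 6, 6 became 2 with the median, 3 with the deposited table, 1 with scan day as a block and 2 with only the arrays compared. The share over all tested probes went from 16.3% to 12.6% with the median. Between bed and edge at day 15, 2 became 1 with the median, with scan day as a block and without the 3 dimmest arrays. Here the share over all tested probes was 8.21%, and 8.73% with the median. Between bed days 6 and 2, 1 became 2 without background correction, with either 75th percentile and without the 3 dimmest arrays, and 0 with only the arrays compared. Shares over all tested probes were counted with quantile normalization and the other scales only. For the other settings and with arrays left out, a change particular to the 41 cannot be told apart from a change over all probes.

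Leaving out 1 array of the groups compared gave 2 to 3 calls for day 2 bed against intact skin, 5 to 11 at day 6 and 2 to 6 at day 15. It gave 0 to 1 for the edge at day 6, 2 to 6 for bed against edge at day 6, 1 to 2 at day 15, 0 to 5 for bed days 6 and 2, and 0 to 1 for bed days 15 and 6. Without any 1 of the 21 arrays the F-test among the groups called 5 to 11, and that of the change with the day 0 to 2. With median scaling the median of all probes was -0.29 in day 6 bed against intact skin, where it was -0.02 with quantile normalization, and -0.37 against the edge, where it was -0.04.

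With the replicate number as a block, 23 of the 28 calls held. The count was 3 between bed and edge at day 6 and 2 between bed days 6 and 2. In the check of pairing, the best match had the same number in 1 of 9 cases, and the numbers were not taken to pair the samples. Since same-numbered bed and edge arrays never shared a scan day, the check cannot exclude pairing.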

Other observations

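The 8 spots of a probe on 1 array gave a second measure of error. The SD of the log2 signal over these spots, taken as the median over the 21 arrays, was 0.14 for the most even of the 41 tested probes, 0.25 for the middle one and 0.52 for the least even. Spots of 1 array share its RNA and are not replicates of a group.

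Among the 12 called probes, 2 had a call between bed and edge only, Mm.18888 and Mm.102338. Among the 41 tested probes, the edge at day 2 held the highest group mean for 1 and the lowest for 10, or 2.44% and 24.4%, against 7.91% and 8.73% of all 974. Intact skin held the highest mean for 8 and the lowest for 10, or 19.5% and 24.4%, against 16.1% and 14.9% of all 974. The bed at day 6 held the highest mean for 12 and the lowest for 5, or 29.3% and 12.2%, against 20.8% and 23.3%.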
